A study of Mus musculus with 7 samples.

Results

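The BMP and Id genes described here are 10 genes of 1 signalling pathway: the ligand genes Bmp2 and Bmp4, the receptor genes Bmpr1a and Bmpr2, the inhibitory Smad genes Smad6 and Smad7, and the Id family Id1, Id2, Id3 and Id4. They were chosen by gene symbol, with 2 measured values in view: Bmp4 was known to be among the highest and Bmpr1a among the lowest genes of the endothelial array. The symbols were looked up among 19938 genes with a probe set of their own, and all 10 were found with 1 probe set each. Expression was measured on 7 single-colour Affymetrix Mouse Gene 1.0 ST arrays, 1 per sample. The samples were 1 culture of mouse dermal endothelial cells (MDEC, labelled PECAM positive), 4 PECAM1+ clones of B16F10 (A2, A3, A4 and A5), the PECAM1- clone A1, and parental B16F10 cells, which are also PECAM1-. B16F10 is a pigmented mouse melanoma line. No agent, time point or animal age is given in the labels. B16F10 cells and clones grew in DMEM with serum, and MDEC in DMEM with an endothelial growth supplement, so cell type and medium cannot be told apart. Each clone is 1 line on 1 array, and the labels do not say whether the clones arose independently.

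Bone morphogenetic proteins (BMPs) are secreted ligands that bring together type I receptors, such as the product of Bmpr1a, and type II receptors, such as that of Bmpr2. The receptors phosphorylate Smad1, Smad5 and Smad9, which join Smad4 and enter the nucleus, where genes of the Id family and the inhibitory Smads are among the best known direct targets. Id proteins bind E proteins and keep them and their partners off DNA, and Smad6 and Smad7 feed back on the receptors. In endothelium BMP signalling acts in vessel growth, and in the melanocyte lineage Id proteins are known as regulators of differentiation and growth.

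The labels were checked against markers before the genes were read. Pecam1 was at 11.72 on the MDEC array, between 11.00 and 11.07 in the PECAM1+ clones, at 5.43 in clone A1 and at 5.27 in parental cells (log2 levels throughout). Of 9 endothelial markers 8 were at least 4-fold higher in MDEC than in B16F10, and all 8 melanocyte markers were at least 4-fold lower. Of 8 leukocyte and platelet markers 2 passed the 4-fold rule, both higher in MDEC: Cd53 and Lyz2 were at 11.00 and 11.76. Short of the rule, Cd14 and Pf4 were at 6.37 and 4.57 in MDEC, above B16F10 ranges of 5.06 to 5.28 and 3.17 to 3.55. Itgam, Itga2b and Cd3e were at 4.84, 6.28 and 6.51 in MDEC, against B16F10 ranges of 4.64 to 4.83, 6.12 to 7.38 and 6.30 to 6.54, and the pan-leukocyte gene Ptprc was at 4.99 in MDEC and between 4.96 and 5.15 in B16F10. Of 8 fibroblast and mural markers 0 passed the 4-fold rule. Among the B16F10 arrays, clone A1 stood apart in 7 of 7 proliferation markers, with a mean of 7.10 over the list. The mean was 10.71 to 10.89 in the PECAM1+ clones and 10.90 in parental cells. In MDEC it was 7.99, so MDEC also lay below the PECAM1+ clones and parental cells. The part of these marker levels in the results below was not tested. Array medians ran from 6.12 to 6.18, detection calls were not used here, and precision is limited by there being 7 arrays. The labels do not say that samples came from separate cultures beyond the clones, so p-values measure the spread between these samples.

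The promoters of 7 of the 10 genes were matched in the RefSeq table of GRCm38.p6, and 5 are shown. Among the PECAM1+ clones Id3 spanned 2.45 log2 units and Smad6 only 0.59. Id2 is the Id gene with the large MDEC difference, and Bmp4 and Bmpr1a had the largest MDEC differences in either direction. Each stretch runs 5′ to 3′ from 250 bases before the annotated start to 10 bases after it. Capitals mark matches on either strand to GGCGNC, a GC-rich element bound by BMP Smads that includes GGCGCC, and to the palindromic Smad element GTCTAGAC.
Id3 (chr4:136143572-136143831, + strand): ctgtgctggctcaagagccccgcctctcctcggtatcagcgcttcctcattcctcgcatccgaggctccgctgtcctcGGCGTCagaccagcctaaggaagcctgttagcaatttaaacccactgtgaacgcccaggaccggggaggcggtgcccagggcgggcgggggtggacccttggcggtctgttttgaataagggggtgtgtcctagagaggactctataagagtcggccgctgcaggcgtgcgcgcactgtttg
Smad6 (chr9:64022050-64022309, - strand): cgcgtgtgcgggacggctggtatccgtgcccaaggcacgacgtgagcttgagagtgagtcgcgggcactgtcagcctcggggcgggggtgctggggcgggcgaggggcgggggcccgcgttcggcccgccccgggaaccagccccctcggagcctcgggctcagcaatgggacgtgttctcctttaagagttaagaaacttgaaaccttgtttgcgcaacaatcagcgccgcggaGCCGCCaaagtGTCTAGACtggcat
Id2 (chr12:25096083-25096342, - strand): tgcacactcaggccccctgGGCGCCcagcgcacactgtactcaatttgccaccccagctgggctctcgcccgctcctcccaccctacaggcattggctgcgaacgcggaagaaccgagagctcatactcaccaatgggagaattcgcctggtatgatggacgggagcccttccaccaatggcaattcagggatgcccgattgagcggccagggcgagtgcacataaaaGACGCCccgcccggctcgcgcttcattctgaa
Bmp4 (chr14:46390660-46390919, - strand): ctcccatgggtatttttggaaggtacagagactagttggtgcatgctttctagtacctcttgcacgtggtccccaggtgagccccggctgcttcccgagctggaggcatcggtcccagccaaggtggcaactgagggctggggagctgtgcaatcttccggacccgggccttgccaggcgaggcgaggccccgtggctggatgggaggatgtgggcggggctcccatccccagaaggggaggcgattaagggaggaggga
Bmpr1a (chr14:34502537-34502796, - strand): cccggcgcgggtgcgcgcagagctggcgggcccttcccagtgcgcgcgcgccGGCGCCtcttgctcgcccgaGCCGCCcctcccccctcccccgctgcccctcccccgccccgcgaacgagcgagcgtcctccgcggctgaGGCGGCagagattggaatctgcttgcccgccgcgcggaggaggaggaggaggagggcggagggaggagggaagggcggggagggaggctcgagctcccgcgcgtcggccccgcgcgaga
Smad6 held GTCTAGAC across its start, beginning 4 bases before it, and 1 GGCGNC match beginning 15 bases before it. GTCTAGAC was found in 58 of 32851 promoter windows of the same length (0.177%). The end of the windows was set so that this Smad6 element is whole, so the share is no test of it. Id3 held 1 GGCGNC match, beginning 172 bases before the start, and no GGCGCC. Id2 held 2 GGCGNC matches, of which 1 was GGCGCC. Bmpr1a held 3 GGCGNC matches, of which 1 was GGCGCC, and no stretch of the Bmp4 window matched any of the 3 motifs. GGCGNC occurred in 31.6% and GGCGCC in 9.96% of all windows. These matches describe the letters of the windows and are no measure of Smad binding.

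The level of each gene on each array is plotted by gene, from MDEC to parental cells.

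**Figure D1:**
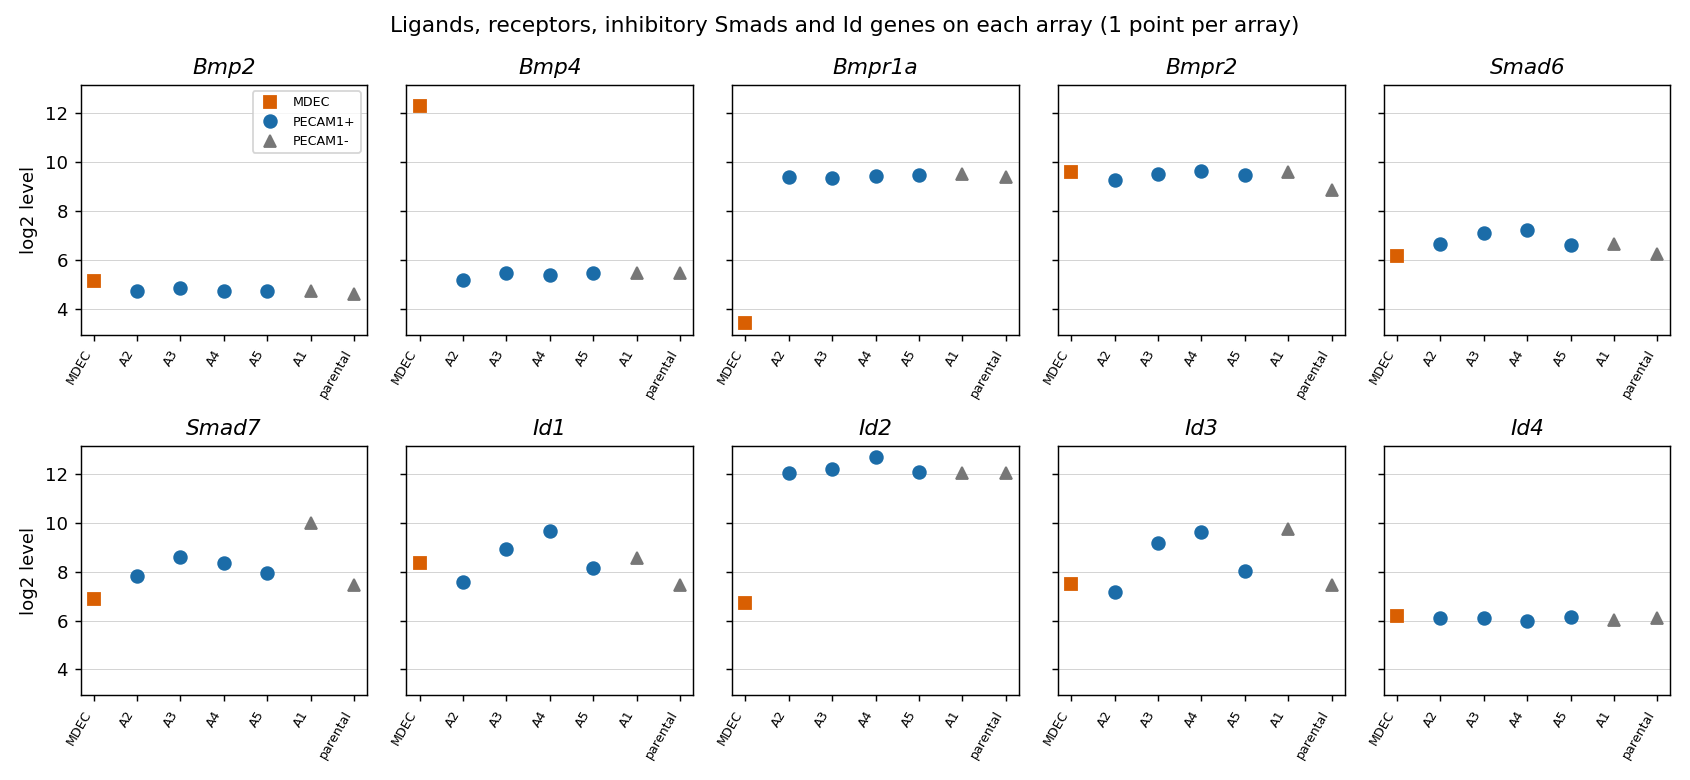
Log2 level (vertical axis) of the 10 genes on each of the 7 arrays (horizontal axis), 1 point per array, with MDEC as squares, PECAM1+ clones as circles and PECAM1- samples as triangles. Bmp4, Bmpr1a and Id2 set MDEC far from B16F10, while Id1 and Id3 spread over more than 2 log2 units within B16F10.

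The comparison of MDEC with B16F10 asks how melanoma cells and clones differ from endothelial cells. Among the 10 genes, Bmp4 was far higher and Bmpr1a and Id2 far lower on the MDEC array. The choice of the 10 genes was made with this contrast known, and MDEC is 1 array, so these differences are a description with no test. The rule of size asked that MDEC be beyond every one of the 6 B16F10 arrays and differ by 4-fold or more from their level, taken as the average of the PECAM1+ and PECAM1- means. It held for 3 of the 10 genes and for 4.73% of all 19938 genes. For 7 of the 10 genes MDEC was beyond every B16F10 array, against 52.9% of all genes. The line lies at 2 log2 units. The nearest of the 10 genes past it was Id2 at -5.41, well beyond, and the nearest short of it was Smad7 at -1.55.

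Bmp4 encodes a secreted BMP ligand. Its level was 12.27 in MDEC, against 5.17, 5.44, 5.37 and 5.44 in clones A2, A3, A4 and A5, 5.44 in clone A1 and 5.44 in parental cells. MDEC was 6.86 log2 units (117-fold) on the deposited scale above the B16F10 level, and no B16F10 array came near it. The B16F10 levels lie below the array medians, and whether they are above background was not tested. Bmp2 encodes a closely related ligand. It was at 5.14 in MDEC, between 4.73 and 4.83 in the PECAM1+ clones, at 4.74 in clone A1 and at 4.60 in parental cells. MDEC was the highest array for Bmp2 as well, by 0.43 log2 units, which is far from the 4-fold rule.

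Bmpr1a encodes the type I receptor ALK3. Its level was 3.40 in MDEC, against 9.36, 9.33, 9.44 and 9.45 in clones A2 to A5, 9.50 in clone A1 and 9.36 in parental cells. The MDEC array was 6.01 log2 units (64.5-fold on the deposited scale) below B16F10. Whether the MDEC level, below the array medians, is above background was not tested. The 6 B16F10 arrays lay within 0.17 log2 units of each other. Bmpr2 encodes the type II BMP receptor. It was at 9.57 in MDEC, inside the B16F10 range of 8.87 to 9.65, so Bmpr2 did not share the low MDEC level of Bmpr1a. Among the other type I receptor genes, Acvr1 was at 8.12 in MDEC and between 7.92 and 8.03 in B16F10. Bmpr1b was at 3.62 in MDEC and between 3.58 and 3.66 in B16F10. Acvrl1, which encodes the endothelial receptor ALK1, was at 7.81 in MDEC, below all 6 B16F10 arrays (8.64 to 9.14), although the endothelial markers Cdh5 and Emcn were at 12.41 and 11.10 in MDEC.

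Id2 differed from the other Id genes in MDEC. It was at 6.73 in MDEC, against 12.03, 12.19, 12.68 and 12.06 in clones A2 to A5, 12.05 in clone A1 and 12.03 in parental cells. The MDEC array was 5.41 log2 units (42.5-fold) below B16F10. Id1 was at 8.34 and Id3 at 7.51 in MDEC, both inside their B16F10 ranges of 7.45 to 9.66 and 7.15 to 9.73. Id4 was at 6.19 in MDEC and between 6.00 and 6.16 in B16F10, 0.12 log2 units above the B16F10 level. Smad7 was at 6.89 in MDEC, below all 6 B16F10 arrays and 2.93-fold below their level. The Smad7 difference of -1.55 log2 units was -0.92 without clone A1 and -2.18 without parental cells. Smad6 was at 6.16 in MDEC and -0.49 log2 units from the B16F10 level, with parental cells (6.22) close to it.

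Other genes of the pathway lists are shown around these members. The lists hold 74 genes, 73 of them measured and 63 of them besides the 10. Of the 63, 6 were higher and 0 lower in MDEC by the same rule, against 543 higher and 400 lower of all 19938 genes. The median difference of the 63 was 0.11 (0.00 over all genes). Grem1 and Fst, which encode secreted antagonists of BMPs and activins, were at 10.43 and 11.02 in MDEC, against B16F10 ranges of 5.34 to 5.86 and 6.02 to 6.40. Crim1, which encodes a membrane protein that binds BMPs, was at 11.15 in MDEC, 2.25 log2 units above B16F10. Among the Smads, Smad1 was at 9.49 in MDEC and between 6.69 and 6.91 in B16F10. Tgfb1 and the TGF-beta receptor gene Tgfbr2 were 3.03 and 3.47 log2 units higher in MDEC. Outside the rule, the ligand gene Bmp6 was 1.67 higher, the co-receptor gene Tgfbr3 was 1.73 higher, and Smad3 was 1.38 higher in MDEC, while the follistatin-like gene Fstl3 differed by -1.62 log2 units. The E protein genes Tcf3, Tcf4 and Tcf12 were 0.23, 0.95 and 0.35 log2 units higher in MDEC.

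**Figure D2:**
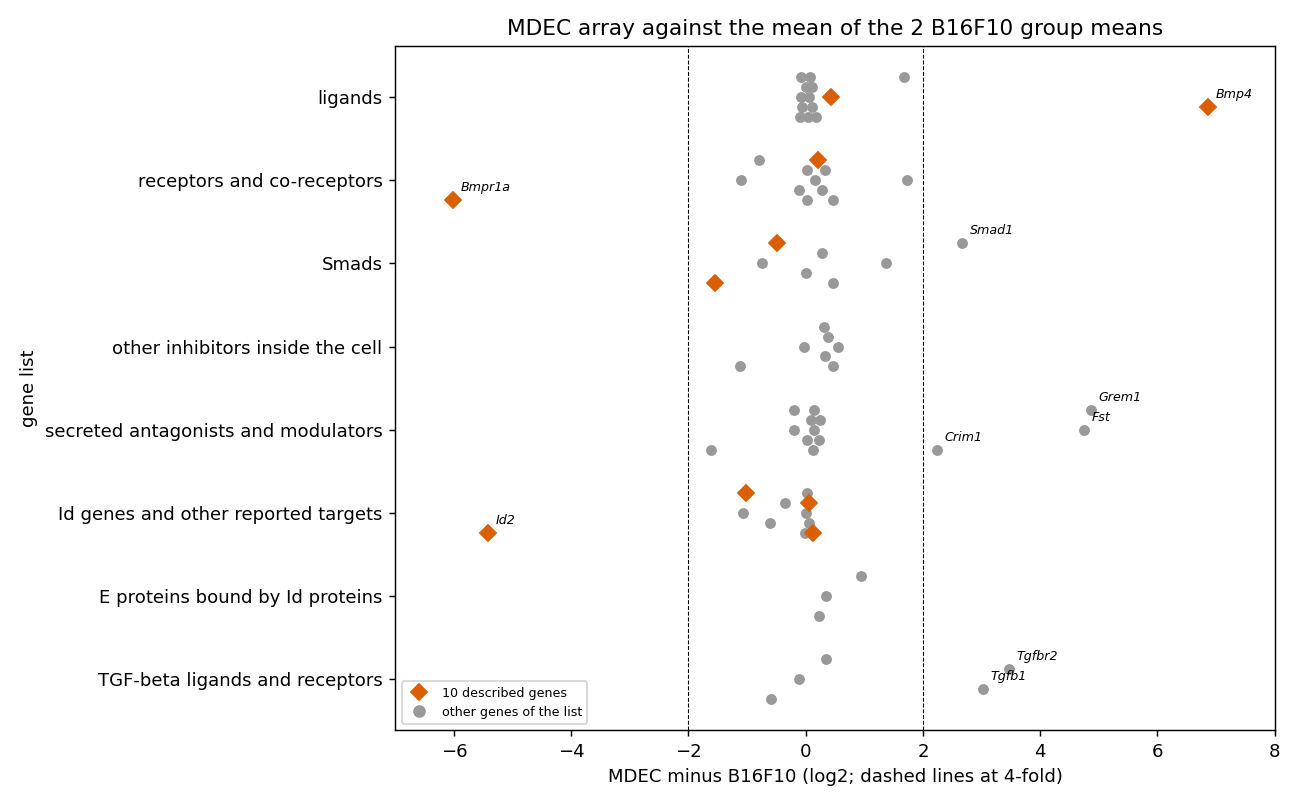
Difference between the MDEC array and the B16F10 level, the average of the PECAM1+ and PECAM1- means (horizontal axis, log2 units) for each measured gene of the 8 pathway lists (vertical axis), with the 10 described genes as diamonds and the others as circles. Dashed lines mark 4-fold. Bmp4 lies at 6.86, Bmpr1a at -6.01 and Id2 at -5.41, and most other genes lie between the lines.

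The comparison of PECAM1+ clones with PECAM1- samples asks which genes go with PECAM1 in melanoma cells. None of the 10 genes passed it, by limma with Benjamini-Hochberg adjustment over 19938 genes. The adjusted p of the 10 genes ran from 0.537 for Smad6 to 0.976 for Id3 with limma, where 0.01% of all genes were called in either direction and 1830 genes had an unadjusted p under 0.05. For 0 of the 10 genes did the 4 clones lie wholly above or below both PECAM1- samples, against 16.4% of all genes. The median difference of the 10 genes was 0.06, and that of all genes 0.00.

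Id3, which encodes an inhibitor of E protein binding, had the widest spread of the 10 genes among the clones. It was at 7.15 in clone A2, 9.18 in A3, 9.60 in A4 and 8.02 in A5, against 9.73 in clone A1 and 7.45 in parental cells. Clones A3 and A4 were near clone A1, clone A2 was below parental cells, and A5 lay between. The PECAM1+ clones averaged 8.49 ± 1.12 (SD, n = 4) and the PECAM1- samples 8.59 ± 1.61 (SD, n = 2). They differed by -0.10 ± 0.93 (SE), at a limma adjusted p of 0.976. The sign of this difference turned without clone A1 (1.04), A2 (0.34) or A5 (0.06).

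Id1, a close relative that BMP Smads activate directly, spread in a similar way. It was at 7.57, 8.94, 9.66 and 8.13 in clones A2, A3, A4 and A5, against 8.55 in clone A1 and 7.45 in parental cells. Clone A4 was the highest array and parental cells the lowest, and clone A2 was within 0.12 log2 units of parental cells. The PECAM1+ clones averaged 8.57 ± 0.92 (SD, n = 4), a mean just above clone A1. The limma difference was 0.58 ± 0.66 (SE), with an adjusted p of 0.723. It was 0.03 without parental cells, 0.21 without A4, 0.91 without A2 and 1.13 without A1. The span among the 4 clones was 2.09 log2 units (4.26-fold) for Id1 and 2.45 (5.48-fold) for Id3. These were the 2 of the 10 genes with a span of at least 2-fold among the clones, against 1.27% of all genes. The SD of Id3 among the clones was larger than that of 99.9% of genes.

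The inhibitory Smads followed the clones in smaller steps. Smad7, which encodes an inhibitor of both BMP and TGF-beta receptors, was at 7.81, 8.58, 8.35 and 7.96 in clones A2, A3, A4 and A5, against 9.97 in clone A1 and 7.44 in parental cells. All 4 PECAM1+ clones lay between parental cells and clone A1, which was 2.52 log2 units (5.76-fold) above parental cells. The limma difference between PECAM1+ clones and both PECAM1- samples was -0.53 ± 0.70 (SE; adjusted p = 0.767), and it turned to 0.73 without clone A1. Smad6, which encodes an inhibitor that acts mainly on BMP receptors, was at 6.63, 7.08, 7.20 and 6.61 in clones A2, A3, A4 and A5, against 6.63 in clone A1 and 6.22 in parental cells. Parental cells were lowest, clone A1 was level with A2, and A3 and A4 were highest. Its limma difference was 0.45 ± 0.23 (SE), with an adjusted p of 0.537.

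Bmpr2 and Id2 had narrower spreads with a like order of the clones. Bmpr2 was at 9.27, 9.52, 9.65 and 9.46 in clones A2, A3, A4 and A5, against 9.60 in clone A1 and 8.87 in parental cells. Parental cells were the lowest array by 0.40 log2 units, and the clones, A1 included, lay within 0.38 of each other. Id2 was highest in clone A4 (12.68), and the other 5 B16F10 arrays lay between 12.03 and 12.19. Clones A3 and A4 were both above A2 and A5 for Id1, Id2, Id3, Bmpr2, Smad6 and Smad7. That order, picked out after the values were seen, held for 6 of the 10 genes under each of 3 scalings and for 9.75% of all genes. The leukocyte and platelet list also had A3 and A4 above A2 and A5 in its mean level, at 5.13, 5.43, 5.40 and 5.32 in A2, A3, A4 and A5, against 5.10 in both clone A1 and parental cells. Its gene Lyz2 was at 6.34, 8.03, 7.87 and 7.09 in A2, A3, A4 and A5, against 4.78 in clone A1 and 5.43 in parental cells, while Ptprc stayed between 4.96 and 5.15. Of the other genes of the list, Cd53 and Itgam had this order. Ptprc, Cd14, Itga2b, Pf4 and Cd3e did not. The endothelial list mean had the order by a small margin, at 5.381, 5.441, 5.463 and 5.438 in A2, A3, A4 and A5. The part of these markers in the order of the clones was not tested. Parental cells were the lowest B16F10 array for 6 of the 10 genes (5 with median centring) and for 15.2% of all genes. For Id2, 1 of the 6, parental cells were only 0.01 below clone A2.

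**Figure D3:**
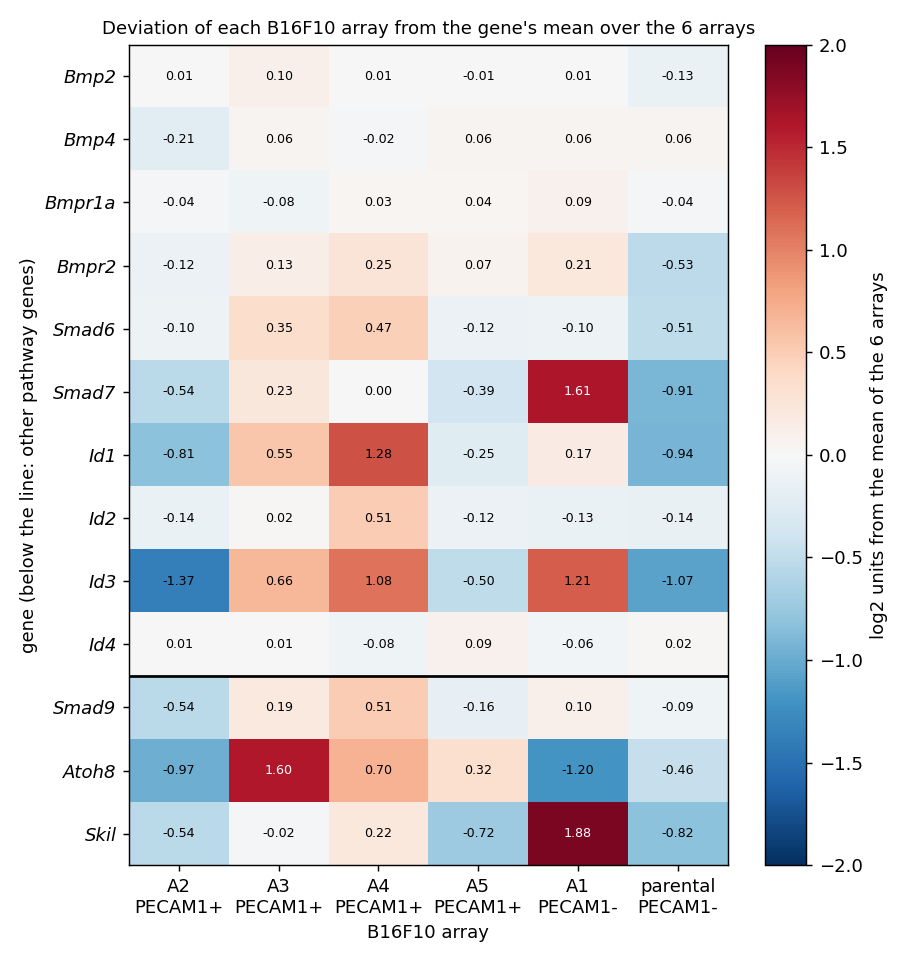
Deviation of each B16F10 array (columns, PECAM1+ clones left of PECAM1- samples) from the mean of the 6 B16F10 arrays, in log2 units (colour and printed number), for the 10 genes and, below the line, Smad9, Atoh8 and Skil. Id1, Id3 and Smad6 are above their means in clones A3 and A4 and below them in A2, A5 and parental cells. Smad7 stands out in clone A1 at 1.61. The genes below the line are among the 5 of the 63 other pathway genes with A3 and A4 both above A2 and A5.

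The remaining genes of the 10 were nearly level across B16F10. Bmp4, Bmpr1a and Id4 spanned 0.27, 0.17 and 0.17 log2 units over the 6 arrays, and Bmp2 0.23. The limma differences were -0.09 ± 0.09 (SE) for Bmp4, -0.03 ± 0.09 for Bmpr1a, 0.02 ± 0.06 for Id4 and 0.09 ± 0.05 for Bmp2. Several arrays held an identical deposited value for these genes: Bmp4 had 4 distinct values on 7 arrays, Bmp2 5, and Bmpr1a and Smad6 6 each. Such repeats ran through the table, with 6.86% to 13.1% of genes identical in a pair of arrays, and they can make the spread of these genes too small.

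Taken singly, the PECAM1- samples gave different pictures. Against clone A1 alone, 1 of the 10 genes passed as lower and 0 as higher in the PECAM1+ clones. This was Smad7, with a mean of 8.18 ± 0.35 (SD, n = 4) in the PECAM1+ clones and 9.97 in clone A1. They differed by -1.79 ± 0.34 (SE), at a limma adjusted p of 0.0368. In this fit 20.5% of all genes were called, 11.2% as lower, so 1 of 10 is near the background. The lone sample was assumed to vary like the PECAM1+ clones. Each of the 4 fits with 1 PECAM1+ clone fewer lost the Smad7 call (limma adjusted p between 0.0557 and 0.109), with the difference between -1.93 and -1.67. Id3 differed by -1.24 ± 1.08 (SE) between the PECAM1+ clones and clone A1 (limma adjusted p = 0.549). Against parental cells alone, 0 of the 10 genes passed with limma, where 0.01% of all genes did and 2684 had an unadjusted p under 0.05. There 8 of the 10 differences were positive, against 9757 of all 19938 genes. Their median was 0.41, where the median of all genes was 0.00, and all 10 share the 1 parental array. Id1 differed by 1.13 ± 0.88 (SE), Id3 by 1.04 ± 1.08, Smad7 by 0.73 ± 0.34, Smad6 by 0.66 ± 0.29 and Bmpr2 by 0.61 ± 0.16, with limma adjusted p from 0.259 for Bmpr2 to 0.898 for Id3. Both fits share the 4 PECAM1+ clones with the first one.

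**Figure D4:**
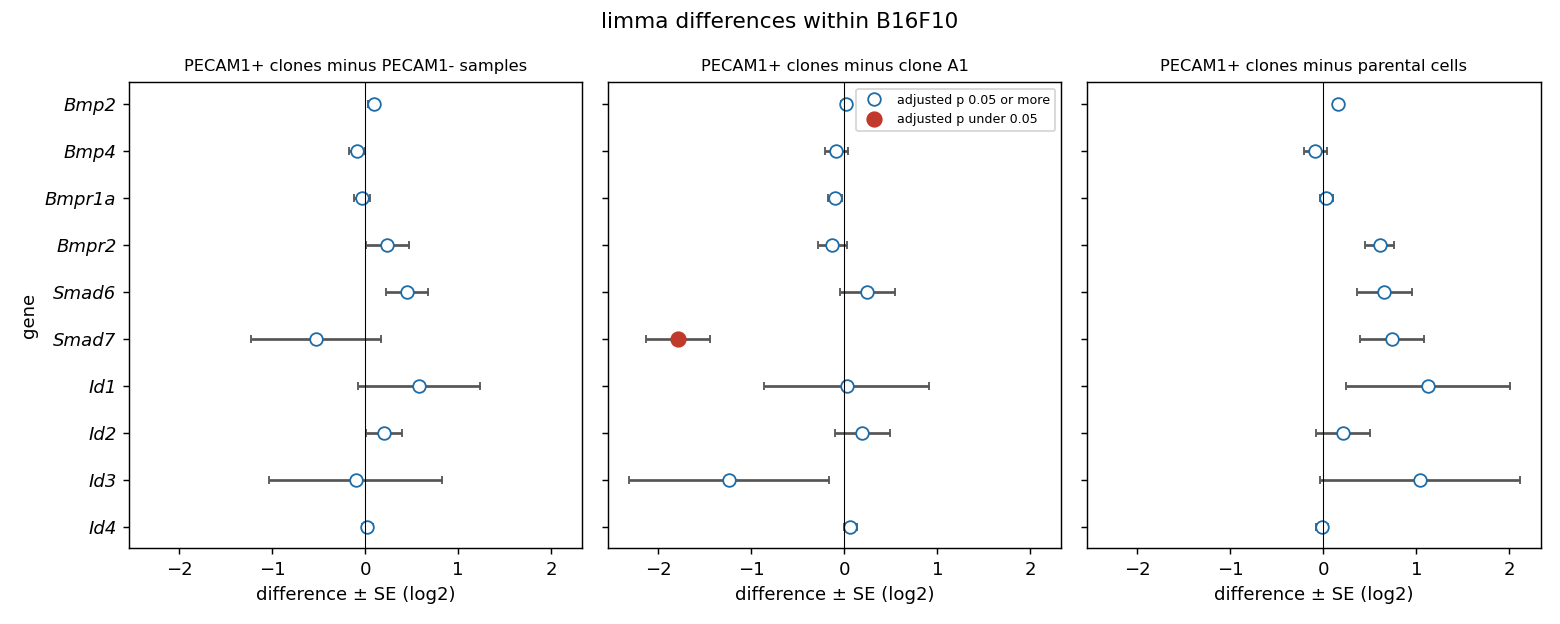
Difference ± SE in log2 units (horizontal axis) between the PECAM1+ clones and both PECAM1- samples (left), clone A1 (middle) and parental cells (right) for the 10 genes (vertical axis), from limma. The filled point, Smad7 against clone A1 at -1.79, is the 1 difference with an adjusted p under 0.05.

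Of the 63 other pathway genes, 0 passed between PECAM1+ clones and PECAM1- samples, with a median difference of 0.00. The largest differences were those of Atoh8, which encodes a transcription factor that BMP9 induces in endothelial cells, and of Skil, which encodes the Smad repressor SnoN. Atoh8 was at 6.57, 9.15, 8.25 and 7.87 in clones A2, A3, A4 and A5, against 6.35 in clone A1 and 7.09 in parental cells. Clones A3 and A4 were above A5 and A2 here, but clone A1 was the lowest array, unlike its place for Id3 and Smad7. Among the 63 other pathway genes, A3 and A4 were both above A2 and A5 for 5, against 9.75% of all genes. That order was therefore not more common in the 63 than among all genes. Atoh8 differed by 1.24 ± 0.71 (SE; limma adjusted p = 0.539). Skil was at 6.69, 7.21, 7.45 and 6.51 in clones A2, A3, A4 and A5, against 9.10 in clone A1 and 6.41 in parental cells, and differed by -0.79 ± 0.76 (SE; limma adjusted p = 0.666). Smad9, which encodes a receptor-regulated BMP Smad, ran from 6.61 in clone A2 to 7.67 in A4. Among the antagonists, Htra1 was highest in clone A3 (6.01) and differed by 0.57 ± 0.33 (SE). Tnfaip6, whose product binds BMP2, differed by 0.75 ± 0.26. The TGF-beta receptor gene Tgfbr1 differed by -0.50 ± 0.13, the ubiquitin ligase gene Smurf2 by -0.40 ± 0.13 and the co-receptor gene Eng by 0.34 ± 0.19, with limma adjusted p from 0.433 to 0.539 for these 5.

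Against clone A1 alone, 4 of the 63 passed as higher and 4 as lower in the PECAM1+ clones, where all genes gave 20.5%. Lower were Skil (-2.14 ± 0.42, SE), Tgfbr3 (-1.16 ± 0.14), Smurf2 (-0.59 ± 0.09) and the activin receptor gene Acvr2a (-0.52 ± 0.05). Higher were Eng by 0.68 ± 0.11, the immunophilin gene Fkbp1a by 0.63 ± 0.05, the co-receptor gene Rgma by 0.49 ± 0.10 and the ligand gene Gdf2 by 0.25 ± 0.04. The limma adjusted p of these 8 ran from 0.00635 to 0.0407. Of the 7 inhibitors inside the cell, Skil and Smurf2 were called lower and Fkbp1a higher in the PECAM1+ clones than in clone A1, and Smurf1, Ski, Tob1 and Bambi did not pass. Of the inhibitory Smads, Smad7 differed by -1.79 ± 0.34 (SE) and Smad6 by 0.25 ± 0.29, and these genes were not compared with each other. Gdf2 ran from 5.47 to 5.78 over the 7 arrays, below the array medians, and clones A2 and A4 held an identical value. Whether Gdf2 is above background was not tested. Clone A1 is also the B16F10 array with the low proliferation markers given above.

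Profiles most like those of the 10 genes were found by the root mean square distance between levels over the 7 arrays. Each gene was centred on its own mean. Olfactory receptor genes and genes with Gm, Rik, LOC or accession-like names were left out of the search. For Id3 the nearest were Slc22a18 (0.54 log2 units), Id1 (0.58) and Smad7 (0.59). For Smad7 they were Etfrf1 (0.20), Cyb5r2 (0.25) and Slc22a18 (0.29). For Id1 they were Papss2 (0.36), Osmr (0.42) and Ceacam1 (0.43), and for Smad6 Cd80 (0.09), Dusp15 (0.09) and Tmem59l (0.11). The profiles of Bmp4, Bmpr1a and Id2 were dominated by the MDEC array. The nearest to Bmp4 were Cd53 (0.04), Emcn (0.11) and Cd93 (0.11), to Bmpr1a Scrn1 (0.11), Xlr (0.11) and Mlana (0.11), and to Id2 Cdk15 (0.17), Cryab (0.18) and Tex101 (0.20). Bmp2, Bmpr2 and Id4 spanned under 1 log2 unit and were not matched.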

How the data were processed

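Total RNA was labelled with biotin and hybridised to 1 array per sample, per the labels. The values as deposited are log2 levels, 1 for each probe set and array. Per the submitters' processing notes they were made with Partek. The sources used here do not give its version, background correction, summarisation, normalization or a genome build. The log2 scale was read from the values (1.39 to 13.5). Of 35557 probe sets, 21789 had 1 gene symbol in the platform annotation, 1621 several and 12147 none. Where a gene had several (999 genes), the one with the highest mean stood for it, which left 19938 genes. All 10 symbols matched RefSeq by Entrez identifier.

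PECAM1+ clones were compared with both PECAM1- samples, with clone A1 and with parental cells by limma 3.58.1 in R 4.3.3 (lmFit, eBayes with trend, two-sided, threshold 0.05). The fit was also run on simulated data in which every sample varied like the PECAM1+ clones. That run cannot check whether a lone clone A1 or parental array does so. Differences are PECAM1+ minus PECAM1-. MDEC entered no fit.

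All 10 genes were named. From each pathway list the 4 others with the largest PECAM1 difference and the 4 with the largest MDEC difference could be named, and 3 similar profiles for each gene spanning 1 log2 unit. Acvr1, Bmpr1b, Ski, Bambi and the marker genes were added beside them. The 10 genes and all lists were chosen with earlier results of these data known. Alternatives were quantile normalization, median centring, eBayes without trend or robust, array weights, a minimum mean of 6, other probe set rules, a threshold of 0.01 and leaving out each sample. Promoter windows run to 10 bases after the start so that an element at the Smad6 start is whole. 1 listed gene is not reported here.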

Additional observations from a re-analysis of the deposited data

Results flagged for a closer look

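Bmp2 in clone A3, at 4.83, lay far from the other PECAM1+ clones, which held 4.74, 4.73 and 4.74. The gap was 0.838 of the range of the 4 clones, above Dixon's 95% critical value. Clones A2 and A4 share an identical deposited value, the whole range is 0.11 log2 units, and chance gives about 1 such result in 20 groups.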

How the results depend on the processing

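Between PECAM1+ clones and both PECAM1- samples, the count of the 10 genes called was 0 in every alternative run but 1: leaving out 1 sample gave 0 to 1, the 1 being Smad7 without parental cells. Against clone A1 the count was 1, fell to 0 at a threshold of 0.01, and was 0 to 0 with a PECAM1+ clone left out. Against parental cells it was 0 in every alternative run. The MDEC count of 3 went to 4 without parental cells or with a 2-fold rule, the added gene being Smad7 in both. Over all genes, 2 were called (1 higher, 1 lower) against both PECAM1- samples, 7 with quantile normalization (1 higher, 6 lower), 6 with median centring (1 higher, 5 lower) and 4089 without parental cells. Against clone A1 the 4089 calls became 1191 at a threshold of 0.01 and 2108 to 3526 with a clone left out. Against parental cells the 2 calls became 7 with median centring (2 higher, 5 lower) and 0 to 1 with a clone left out.

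Some uncalled differences changed sign. With a sample left out, PECAM1+ minus PECAM1- ran from -1.24 to 1.04 for Id3, -0.0144 to 0.0632 for Id4, -0.10 to 0.0325 for Bmpr1a, -0.13 to 0.61 for Bmpr2 and -1.79 to 0.73 for Smad7. The extremes for Id3, Bmpr2 and Smad7 came without clone A1 or parental cells, where the PECAM1- level is that of 1 sample. PECAM1+ minus clone A1 ran from -0.34 to 0.36 for Id1 and from -0.00572 to 0.0297 for Bmp2, and PECAM1+ minus parental from -0.0401 to 0.0150 for Id4. Median centring gave -0.000945 for Id4 against both PECAM1- samples, and -0.00616 for Id1 and -0.0138 for Bmp2 against clone A1, where quantile normalization gave -0.0145 for Bmp2. The cause of these changes with scaling was not tested. Signal over background could not be read without detection calls, so whether the low levels of Bmp2, of Bmp4 in B16F10 or of Bmpr1a in MDEC are above background was not tested. With 1 array per clone, differences between clones include the error of single arrays.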
